A study of Mus musculus with 6 samples.

Results

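The RNA of 10 metalloprotease genes was followed in stomach fibroblasts of mice with induced gastric cancer: 5 ADAM genes (Adam9, Adam10, Adam12, Adam17 and Adam19) and 5 ADAMTS genes (Adamts1, Adamts2, Adamts4, Adamts5 and Adamts12). They were taken by symbol from a list of family members, and all 10 were among the 14228 genes of the deposited count table. Every mouse in the study was a triple-transgenic iLgr5;GLI2A animal of 8 weeks, a strain in which an active GLI2 can be switched on in Lgr5-expressing cells. Mice of the cancer group were gavaged with tamoxifen in corn oil for 5 days and then ate doxycycline chow for 3 weeks, with doxycycline and sucrose in the drinking water on the first 3 days. Control mice were given corn oil and no doxycycline, and the drugs and the tumour therefore cannot be told apart here. Live podoplanin-positive cells without CD31, CD45 and EpCAM were sorted from digested stomachs and sequenced by MARS-seq, which counts the 3′ ends of polyadenylated RNA. The cancer-associated fibroblasts (CAF) gave 3 libraries, of 1, 2 and 2 mice for CAF 1, CAF 2 and CAF 3, and the control fibroblasts 3 libraries, of 1, 1 and 2 mice for normal 1, normal 2 and normal 3.

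ADAM proteins are membrane-anchored proteases that cut other surface proteins close to the membrane, a step called shedding, which frees growth factors and cytokines or begins the signalling of Notch receptors. ADAMTS proteins are secreted relatives that carry thrombospondin repeats and act in the matrix, where some cut the large proteoglycans aggrecan and versican and others trim the ends of procollagens. Both families use a zinc ion, held by histidines in a short conserved stretch, to break the peptide bond.

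The coding bases of that stretch are shown because they are what makes each of the 10 a protease of the same class. The sequences are from the GENCODE M21 transcripts (mm10), read 5′ to 3′ on the coding strand. Capitals mark the codons of the zinc-binding histidines and of the catalytic glutamate that follows the first of them.
Adam9: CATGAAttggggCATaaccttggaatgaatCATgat
Adam10: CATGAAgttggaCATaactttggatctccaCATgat
Adam12: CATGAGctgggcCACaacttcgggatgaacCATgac
Adam17: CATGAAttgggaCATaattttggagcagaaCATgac
Adam19: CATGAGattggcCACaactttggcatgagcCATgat
Adamts1: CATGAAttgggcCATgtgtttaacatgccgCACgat
Adamts2: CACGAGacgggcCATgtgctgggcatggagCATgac
Adamts4: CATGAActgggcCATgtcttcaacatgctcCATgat
Adamts5: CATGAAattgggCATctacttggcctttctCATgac
Adamts12: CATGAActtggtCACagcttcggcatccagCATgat

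In Adam12 the stretch lies in exon 11 at chr7:133961155-133961190 on the minus strand, and in Adam19, its closest match among the ADAM genes at 30 of 36 identical bases, in exon 11 at chr11:46125050-46125085 on the plus strand. Adamts1 and Adamts4, both known as aggrecan-cutting enzymes, were the closest ADAMTS pair, also at 30 of 36 bases. Pairs within the ADAM genes shared a median of 26.5 bases, pairs within the ADAMTS genes 23 and pairs across the families 23. The stretch crosses an intron in Adam10 and in all 5 ADAMTS genes (exons 3 and 4 in Adamts1 and Adamts4, exons 7 and 8 in Adamts2 and Adamts12). The same search found the stretch in 15 of the 29 other ADAM genes listed, in all 14 other ADAMTS genes, and in none of 7 ADAMTS-like genes, which are known to lack the protease part.

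The libraries differed in 3 ways that bear on these genes. The total count ran from 644522 to 6422568 in CAF and from 768420 to 3259644 in normal libraries, so that 3 counts corresponded to 4.39 CPM in CAF 1 (CPM, the count per scaled library size) and to 0.414 CPM in CAF 2. Markers of gastric gland cells took 0.597% to 0.892% of the counts in CAF and 4.10% to 18.2% in normal libraries, with normal 3 the lowest of the normals, while fibroblast markers took 1.97% to 5.49% in CAF and 0.688% to 2.63% in normal libraries. General epithelial markers overlapped between the groups, at 0.198% to 0.437% in CAF and 0.1225% to 0.440% in normal libraries. Squamous forestomach markers took 0.00884% to 0.0122% in CAF and 0.0154% to 0.240% in normal libraries. Genes with GC-rich 3′ ends were relatively high in CAF 1, normal 1 and normal 3 (Spearman correlations over 10949 genes of 0.40, 0.18 and 0.26 between GC content and a gene's deviation from its mean) and low in CAF 2, CAF 3 and normal 2 (-0.43, -0.46 and -0.24). These correlations describe the libraries, and the genes in them share depth and base composition. Smooth muscle and pericyte markers took 0.126% to 0.327% in CAF and 0.0633% to 0.148% in normal libraries, immune markers 0.0222% to 0.191% and 0.00629% to 0.0812%, and endothelial markers at most 0.00676% in any library. Enteric glia markers took 0.00558% to 0.0129% in CAF and 0.000781% to 0.00221% in normal libraries, and mesothelial markers 0.0178% to 0.0281% and 0.0398% to 0.0745%, both without overlap; the part of these cells in the protease levels was not tested. The 95% exact binomial intervals of these shares were at most 0.14 percentage points wide. As in any bulk sample, fewer cells of a type and less RNA per cell cannot be told apart.

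Of the 10 genes, Adam12 alone passed the test between the groups, and it was higher in CAF. Over all genes tested, 112 of 10148 genes passed at an adjusted p of 0.05 (edgeR, quasi-likelihood F test, Benjamini-Hochberg), which is 1.1% (0.897% higher and 0.207% lower in CAF). The filter on low counts kept 9 of the 10 genes and left out Adamts5. Adam12 was also the only one of the 10 whose CAF and normal libraries did not overlap, against 10.6% of all tested genes without overlap and higher in CAF and 9.35% without overlap and lower. The list was drawn up with earlier results of these data known, Adam12 among them, so its call is no independent evidence about the family.

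**Figure D1:**
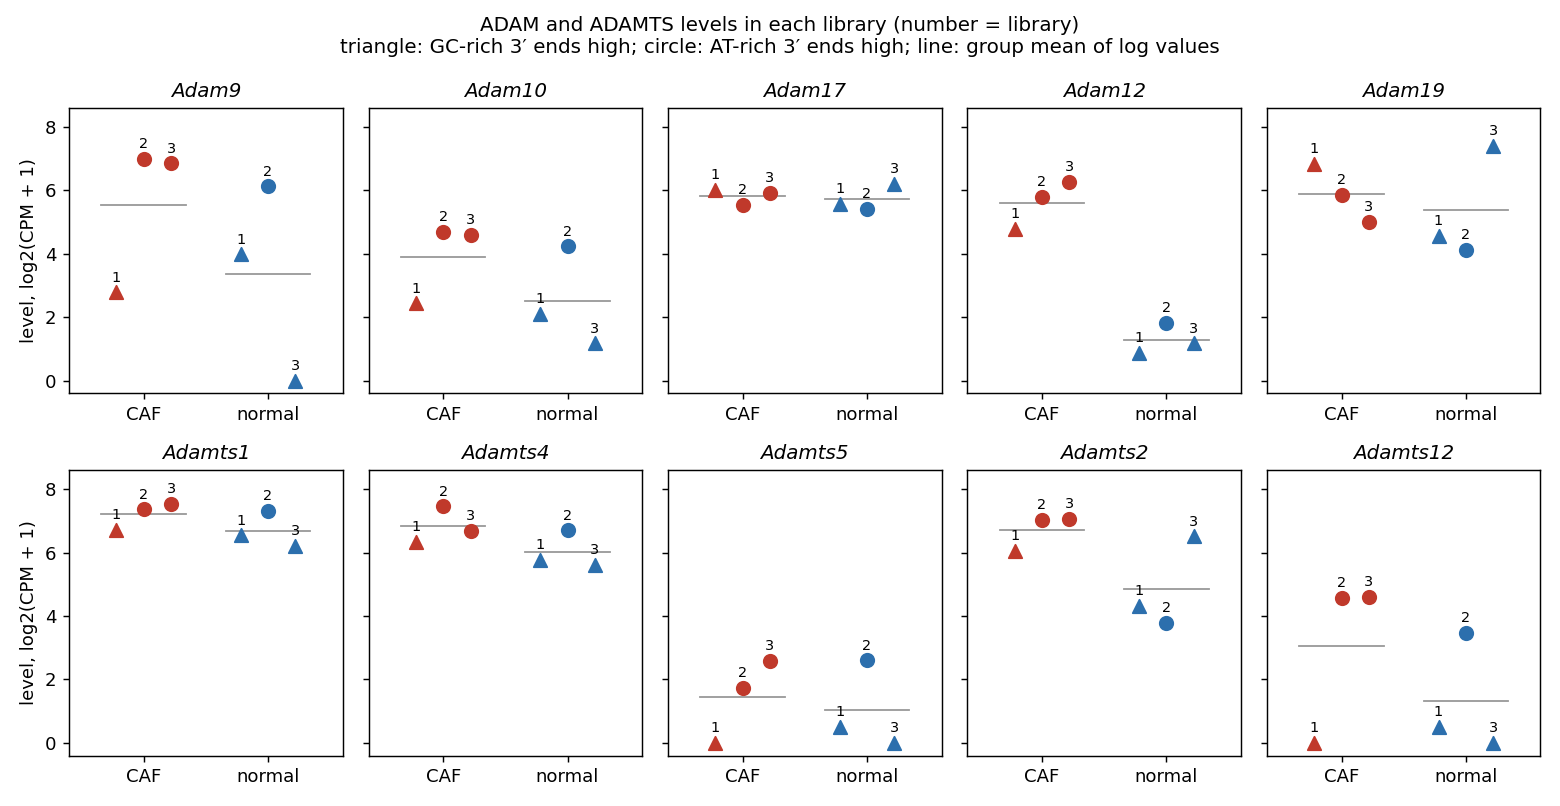
Level of each of the 10 genes in the 3 CAF (red) and 3 normal (blue) libraries, as log2(CPM + 1); numbers name the library, triangles mark the libraries in which GC-rich 3′ ends were high, and lines are group means of the log values. Adam12 is the one gene with all CAF libraries above all normal ones, while Adam9, Adam10, Adamts1, Adamts4, Adamts5 and Adamts12 are highest in CAF 2, CAF 3 and normal 2.

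Adam12 encodes a membrane metalloprotease of mesenchymal cells, also known as meltrin alpha, which is low in most adult tissues and rises in regenerating muscle and in fibrosis. The gene lies at chr7:133883199-134232146. It had 18, 395 and 556 counts in CAF 1, CAF 2 and CAF 3, and 2, 2 and 1 counts in normal 1, normal 2 and normal 3. On the CPM scale these were 26.3, 54.5 and 75.2 in CAF and 0.816, 2.53 and 1.25 in normal libraries. Every normal library was thus near the limit of detection and every CAF library well above it. The fitted log2 fold change was 5.28 ± 0.66 (approximate SE; n = 3 in each group; 95% interval 3.76 to 6.81; adjusted p = 0.0201 by edgeR). Since only 5 counts lie behind the normal level, the ratio of pooled rates was also taken: it was 51.1, with an exact counting interval of 21.8 to 158. Pooling weights each library by its depth. The deepest were CAF 2 and CAF 3, where GC-rich 3′ ends were low, and among the normals normal 1, where they were high. Among libraries alike in this respect the ratio was lower, at 28.5 and 25.65. The mean level was 52.0 CPM in CAF and 1.53 CPM in normal libraries.

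Adam12 was higher in CAF on both sides of the GC split, though each side holds a single library of 1 group and only 2 or 3 normal counts. Among CAF 1, normal 1 and normal 3 the ratio of pooled rates was 28.5, with an exact counting interval of 8.33 to 151, and among CAF 2, CAF 3 and normal 2 it was 25.65 (7.08 to 212). Against normal 3 alone, the normal library with the least gland RNA, the log2 fold change was 5.44, with an adjusted p of 0.307 by edgeR in a fit where this lone library is assumed to vary like the CAF group. With 1 library left out it ranged from 27.0-fold to 53.6-fold. It no longer passed without CAF 2, CAF 3, normal 1 or normal 2 (adjusted p = 0.0791, 0.0708, 0.156 and 0.082 by edgeR) or with limma-voom (adjusted p = 0.0622), and over 18 alternatives the adjusted p ran from 3.14e-07 to 0.307. The authors' deposited table gives Adam12 a log2 fold change of 5.29 and an adjusted p of 3.48e-07.

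By the root mean square difference of centred log2 CPM over the 6 libraries, the genes most like Adam12 were Pla1a, Wif1, Serpinb9b, Wfdc12 and Cp, at 0.46, 0.47, 0.51, 0.55 and 0.58 log2 units. Pla1a, a secreted phospholipase, was at 130, 127 and 216 CPM in CAF 1 to 3 and at 3.26, 10.1 and 10.0 CPM in normal 1 to 3. Cp encodes the copper-carrying plasma protein ceruloplasmin and Wif1 a secreted Wnt inhibitor. None of the other protease genes was near: Adamts2 came closest at 1.70 log2 units, rank 481 of 10147 genes, and Adam19 was at 2.53.

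Adam19, likewise a mesenchymal ADAM (meltrin beta), was spread widely inside each group. Among the ADAM genes followed here it was the closest match of Adam12 in the zinc stretch. The gene lies at chr11:46055992-46147343. Its level was 113, 56.3 and 31.1 CPM in CAF 1 to 3 and 22.4, 16.5 and 168 CPM in normal 1 to 3. The highest library of all was normal 3 and the lowest normal 2, so the normal range enclosed the whole CAF range. The log2 fold change was -0.06, with a 95% interval from -2.14 to 2.02 (adjusted p = 0.986 by edgeR). Without normal 3 it was 1.63 (adjusted p = 0.151), and its sign turned in 7 of 18 alternatives.

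The sheddases ADAM9, ADAM10 and ADAM17 cut growth factor precursors, cadherins and Notch receptors, and ADAM17 is the enzyme that frees tumour necrosis factor. Adam17 (chr12:21323509-21373632) had the smallest ratio of highest to lowest library among the 10 genes. It was at 62.9, 45.7 and 59.4 CPM in CAF 1 to 3 and at 46.1, 41.8 and 72.5 CPM in normal 1 to 3. The groups overlapped fully, and the log2 fold change of 0.06 had a 95% interval from -0.72 to 0.85 (adjusted p = 0.96 by edgeR). Its 3′ end overlaps Iah1 on the other strand, and whether the counts used strand is not given in the sources used here.

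Adam10 (chr9:70678997-70780229) was low throughout, with 3, 178 and 170 counts in CAF 1 to 3 and 8, 14 and 1 counts in normal 1 to 3. As CPM these were 4.39, 24.6 and 23.0 in CAF and 3.26, 17.7 and 1.25 in normal libraries. CAF 2, CAF 3 and normal 2 formed the high set and the other libraries the low set, across the groups. Between the groups the log2 difference was 1.40 with a 95% interval from -0.75 to 3.55 (adjusted p = 0.558 by edgeR).

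Adam9 (chr8:24949611-25016927) divided the libraries in the same way and over a wider range. It was at 5.85, 124 and 114 CPM in CAF 1 to 3 and at 14.7 and 68.4 CPM in normal 1 and normal 2. Normal 3 had 0 counts, which allows up to 3.75 CPM. CAF 1 thus lay below normal 1 and normal 2. The log2 fold change of 1.62 had a 95% interval from -1.33 to 4.58 (adjusted p = 0.63 by edgeR). Within the GC sides the direction of the estimate differed. The CAF mean was 1.74-fold higher among CAF 2, CAF 3 and normal 2, and 1.25-fold lower among CAF 1, normal 1 and normal 3. The lower value rests on 4 counts in CAF 1, against 36 in normal 1 and 0 in normal 3, so its direction is uncertain.

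**Figure D2:**
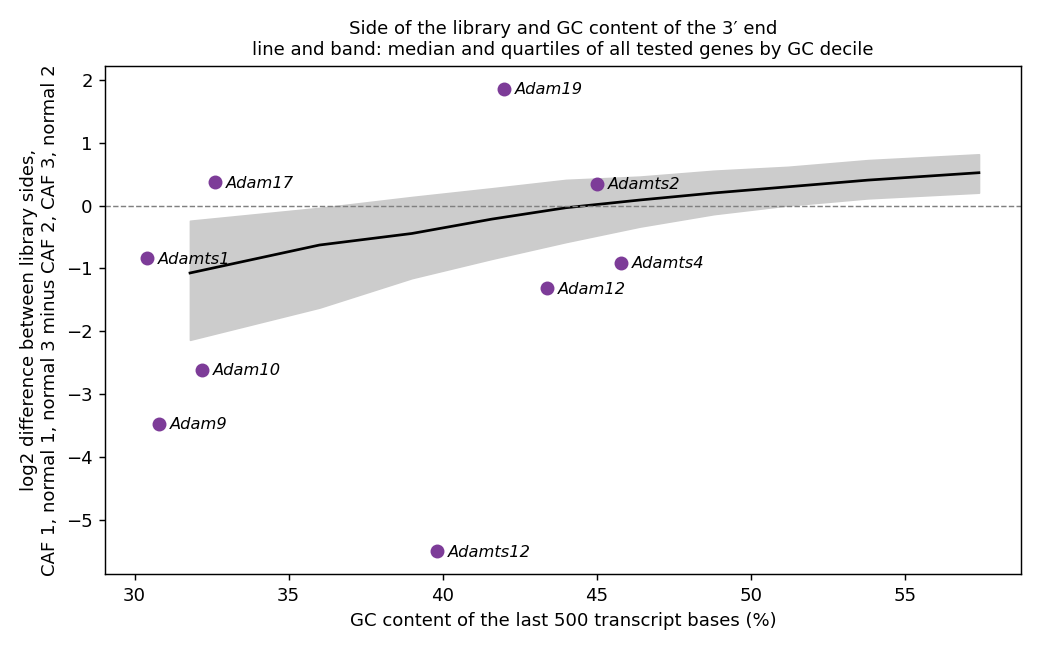
Log2 difference between the library sides (CAF 1, normal 1 and normal 3 minus CAF 2, CAF 3 and normal 2, from a fit that also holds the group) against the GC content of the last 500 transcript bases, for the 9 tested protease genes (points) and for all tested genes by GC decile (line, median; band, quartiles). Adam9, Adam10, Adam12, Adamts4 and, farthest, Adamts12 lie below the band, Adam17 and Adam19 lie above it, and Adamts1 and Adamts2 lie within it.

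In a fit with both terms, the difference between the library sides was larger in size than that between the groups in 7 of the 9 tested genes, all but Adam12 and Adamts2, as it was in 51.7% of all tested genes. It was widest in Adam9, Adam10 and Adamts12. In CAF 1, normal 1 and normal 3 Adam9 had 4, 36 and 0 counts, Adam10 3, 8 and 1, and Adamts12 0, 1 and 0. The sizes of their side differences are therefore uncertain. The last 500 bases of the transcript were 30.8% GC in Adam9, 32.2% in Adam10 and 39.8% in Adamts12, and their side differences were -3.47, -2.61 and -5.50 on the log2 scale. Their group differences in the same fit were 0.33, 0.52 and 1.02 (adjusted p = 0.897, 0.652 and 0.487 by edgeR). Over all tested genes in the lowest GC decile the median side difference was -1.07. Adam17 at 32.6% GC had a side difference of 0.37, Adamts1 at 30.4% one of -0.84, Adam19 at 42.0% one of 1.86, Adam12 at 43.4% one of -1.32, Adamts2 at 45.02% one of 0.34 and Adamts4 at 45.8% one of -0.91. With the side as a block in the fit, chosen after seeing the data, Adam12 passed (log2 fold change 4.71, adjusted p = 0.0189) and the other 8 tested genes did not. What part GC content has in these levels was not tested.

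Adamts1, Adamts4 and Adamts5 are the main aggrecan- and versican-cutting enzymes of the family, and Adamts1 and Adamts5 are neighbours on the minus strand of chromosome 16 (chr16:85793827-85803113 and chr16:85856173-85901828). Adamts1 was at 104, 163 and 183 CPM in CAF 1 to 3 and at 91.8, 158 and 72.5 CPM in normal 1 to 3. Normal 2 lay among the CAF libraries, so the groups overlapped. CAF and normal levels differed by 0.49 on the log2 scale (95% interval -0.43 to 1.41; adjusted p = 0.641 by edgeR).

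Adamts5 was close to the floor of these libraries. It had 0, 17 and 37 counts in CAF 1 to 3 and 1, 4 and 0 counts in normal 1 to 3, and was not tested in the fit reported. A count of 0 allows up to 4.39 CPM in CAF 1 and 3.75 CPM in normal 3. These limits lie above the 2.35 CPM of CAF 2 and the 0.408 CPM of normal 1. CAF 1 and normal 3 therefore cannot be placed below those libraries. The limits lie only a little below the 5.07 CPM of normal 2, which rests on 4 counts, and the 5.0 CPM of CAF 3. It did not pass in any of the 5 alternatives that tested it (adjusted p = 0.54 to 0.936), and the authors' deposited table gives it a log2 fold change of 0.61 and an adjusted p of 0.948.

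Adamts4 (chr1:171250421-171260637), an enzyme induced by inflammatory cytokines in cartilage, was at 79.0, 174 and 102 CPM in CAF 1 to 3 and at 53.5, 102.6 and 47.5 CPM in normal 1 to 3. CAF libraries held 2 of the 3 highest levels, but normal 2 was level with CAF 3. The log2 fold change of 0.82 had a 95% interval from -0.20 to 1.84 (adjusted p = 0.446 by edgeR). It was positive within both GC sides, at 0.43 among CAF 2, CAF 3 and normal 2 and at 0.65 among CAF 1, normal 1 and normal 3.

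Adamts2 (chr11:50602084-50807573) encodes the main enzyme that removes the amino-terminal propeptide of procollagens I and III. Its level was 65.8, 129 and 132 CPM in CAF 1 to 3 and 18.8, 12.7 and 90.0 CPM in normal 1 to 3. Normal 3 alone overlapped the CAF range, lying above CAF 1. The fitted difference was 1.47 on the log2 scale (95% interval -0.20 to 3.13; adjusted p = 0.393 by edgeR). Without normal 3, the normal library with the highest fibroblast share (2.63%) and the lowest gland share (4.10%), it was 2.70 and passed (adjusted p = 0.0172 by edgeR). That fit called 1193 of 11888 genes, against 112 of 10148 in the fit reported. The CAF mean was 10.3-fold the normal level among CAF 2, CAF 3 and normal 2 and 1.21-fold among CAF 1, normal 1 and normal 3. With the fibroblast marker counts as library total it was 0.53, where the median of all genes was -1.12.

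Adamts12 (chr15:11064790-11349231), a secreted enzyme that cuts cartilage oligomeric matrix protein, was measurable mainly in 3 libraries. It had 165, 171 and 8 counts in CAF 2, CAF 3 and normal 2, or 22.8, 23.1 and 10.1 CPM. CAF 1 and normal 3 had 0 counts and normal 1 had 1 count. The log2 fold change of 2.49 had a 95% interval from -0.84 to 5.81 (adjusted p = 0.487 by edgeR), and in the 4 fits without 1 library that tested it (it fell below the filter without CAF 2 or CAF 3) it ran from 1.67 to 5.63, the highest value being that without normal 2.

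**Figure D3:**
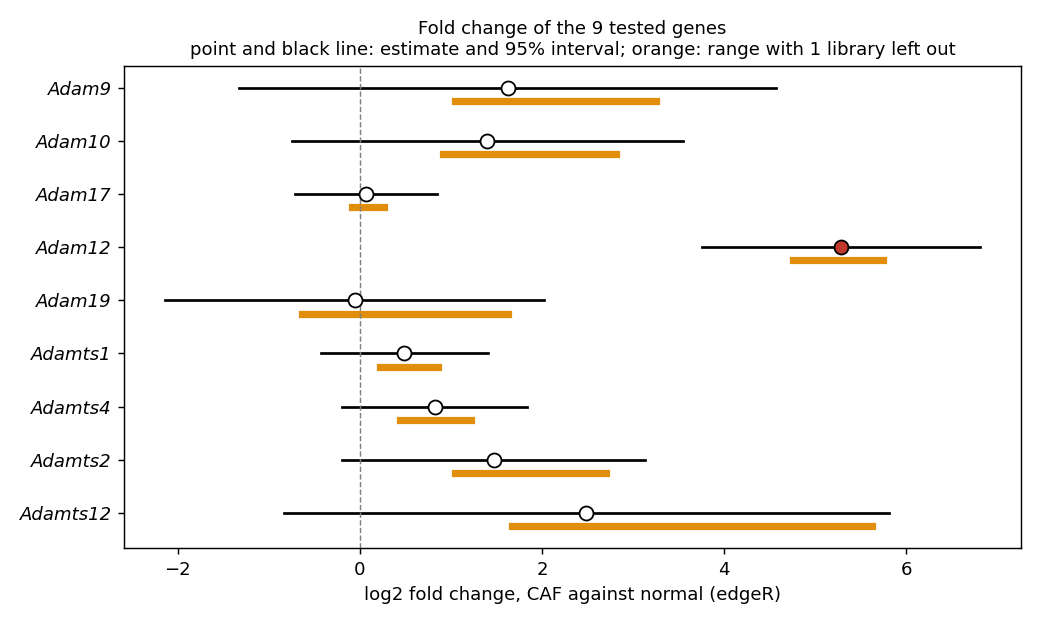
Log2 fold change between CAF and normal libraries for the 9 tested genes, with the 95% interval (black) and the range of the fits that leave out 1 library (orange); red marks an adjusted p under 0.05. The Adam12 interval, 3.76 to 6.81, is the one that does not reach 0.

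Around these 10 genes, none of the 5 other ADAM and 6 other ADAMTS genes tested by edgeR passed. DESeq2, an alternative that was not filtered in this way, called 7.28% of all genes with an adjusted p (3.12% higher and 4.17% lower in CAF), and its counts in the lists are read against that share. By edgeR, 1557 of all 10148 tested genes had an unadjusted p under 0.05, and such counts in the lists are read against that. Of 29 other ADAM genes 10 were in the table and 5 were tested, with 0 called by edgeR, 1 at an unadjusted p under 0.05, and 0 of 6 called by DESeq2. That 1 gene was Adamdec1, a soluble family member without the complete zinc site, at 87.8, 81.6 and 28.1 CPM in CAF 1 to 3 and at 93.0, 79.8 and 1066 CPM in normal 1 to 3. Normal 3 thus held more than the other 5 libraries together, and the log2 fold change was -2.66 (adjusted p = 0.286 by edgeR). Adam33, a mesenchymal ADAM, was highest in CAF 3 at 80.5 CPM and differed by 1.92 on the log2 scale (adjusted p = 0.407).

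Of 14 other ADAMTS genes 10 were in the table and 6 were tested, with 0 called by edgeR, 1 at an unadjusted p under 0.05, and 3 of 10 called by DESeq2. Adamts15, another versican- and aggrecan-cutting enzyme, was the edgeR gene of smallest p. It was at 129, 121 and 115 CPM in CAF 1 to 3 and at 31.8, 16.5 and 62.5 CPM in normal 1 to 3, with no overlap, a log2 fold change of 1.72 ± 0.47 (approximate SE, n = 3) and an adjusted p of 0.12 by edgeR. For Adamts7 the log2 difference was 1.10 (adjusted p = 0.402). Besides Adamts15, DESeq2 called Adamts16 and Adamts20, which fell below the edgeR filter and are named after their values were seen. Both had 0 counts in all 3 normal libraries. Adamts16 had 2, 74 and 150 counts in CAF 1 to 3, at least 15.0-fold higher when the normal group is set to 3 counts (5.90-fold without normal 1), and Adamts20 had 4, 39 and 30 counts, at least 6.86-fold higher (2.70-fold without normal 1).

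Among the ADAMTS-like genes, secreted proteins without the protease part, 0 of 6 tested were called by edgeR, with 1 at an unadjusted p under 0.05, and 0 of 7 by DESeq2. Adamtsl2, which binds fibrillin and latent TGF-beta binding protein, was at 95.1, 89.6 and 61.8 CPM in CAF 1 to 3 and at 4.49, 11.4 and 45.02 CPM in normal 1 to 3 (log2 fold change 2.08, adjusted p = 0.237 by edgeR). For Adamtsl5 the log2 difference was -1.41 (adjusted p = 0.384).

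**Figure D4:**
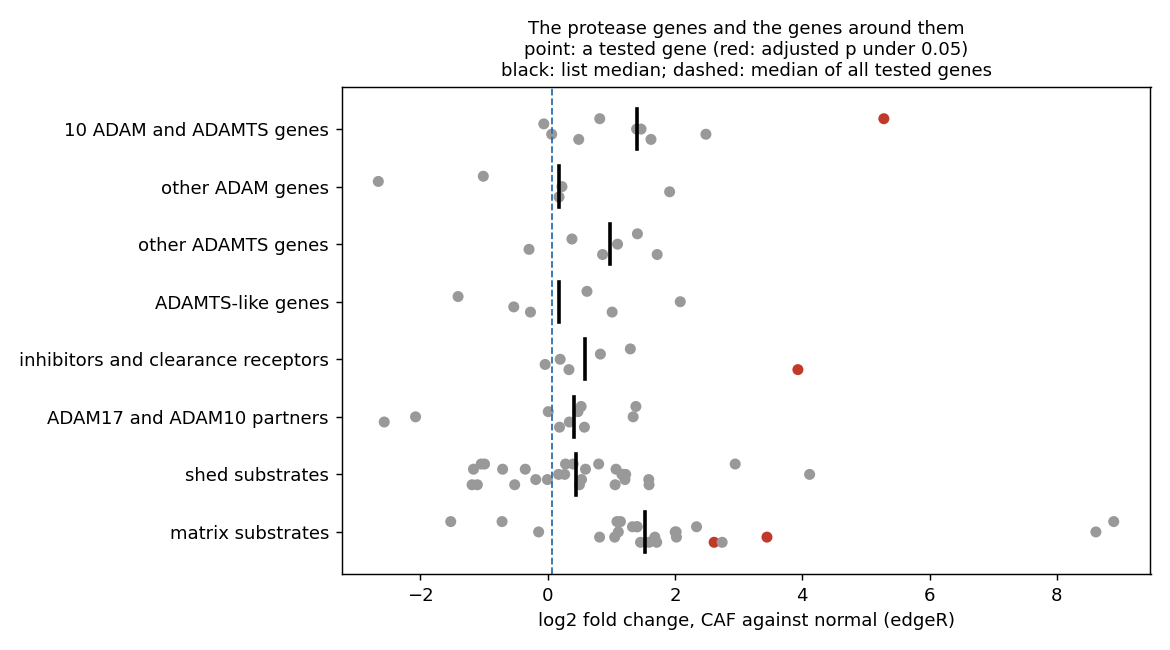
Log2 fold change of each tested gene in the 10 protease genes and in 7 lists around them (points; red, adjusted p under 0.05), with each list's median (black) and the median of all tested genes (dashed, 0.06). Passing genes are Adam12, Timp1, Nid2 and Fbn2, and the matrix substrate list has the highest median at 1.53.

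TIMP proteins are metalloprotease inhibitors that differ in which enzymes they block, and TIMP3 has the broadest reach over ADAM and ADAMTS proteases. Which of the 10 proteases TIMP1 blocks was not tested. Of 6 tested inhibitors and clearance receptors 1 was called by edgeR, Timp1, and 2 by DESeq2, Timp1 and Timp3, all higher in CAF. Timp1 was at 1254, 1015 and 564 CPM in CAF 1 to 3 and at 50.6, 25.3 and 110 CPM in normal 1 to 3 (log2 fold change 3.93 ± 0.63, approximate SE, n = 3; adjusted p = 0.039 by edgeR). The list's median log2 fold change was 0.58, against 0.06 over all tested genes. Timp1 no longer passed without CAF 1, CAF 2, CAF 3, normal 1 or normal 2 (adjusted p = 0.0888, 0.148, 0.0766, 0.223 and 0.119 by edgeR) or with mice per library as a covariate (0.0693). Timp3 was at 257, 147 and 217 CPM in CAF 1 to 3 and at 57.9, 109 and 86.3 CPM in normal 1 to 3, with no overlap (log2 fold change 1.30, adjusted p = 0.135 by edgeR).

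Partners of ADAM17 and ADAM10 (the iRhom carriers, their binding protein Frmd8, tetraspanins, and the convertases that remove the propeptide) had a median log2 fold change of 0.41, with 0 of 10 tested genes called by edgeR and 3 at an unadjusted p under 0.05. DESeq2 called 2 of 12 lower, Tspan15 and Tspan33, which were below the edgeR filter. Tspan15 was at 2.93, 2.35 and 1.89 CPM in CAF 1 to 3 and at 49.0, 49.4 and 1.25 CPM in normal 1 to 3. Tspan33 was at 1.46, 2.48 and 2.57 CPM in CAF and at 39.6, 46.9 and 1.25 CPM in normal libraries. Normal 3, with 1 count of each, lay below every CAF library, so only normal 1 and normal 2 were high. The genes of smallest p were the convertases Furin and Pcsk6. Furin was at 231, 123 and 102.5 CPM in CAF 1 to 3 and at 1108, 698 and 101 CPM in normal 1 to 3 (log2 fold change -2.07, adjusted p = 0.261 by edgeR). The high normal libraries were the 2 with the highest gland share, 18.2% in normal 1 and 14.5% in normal 2, and normal 3 (4.10%) was level with CAF 3. The part of gland RNA in Furin, Tspan15 and Tspan33 was not tested. Pcsk6 was instead highest in normal 3, at 884 CPM (log2 fold change -2.57, adjusted p = 0.292).

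Substrates that ADAM proteases shed had a median of 0.45 over 28 tested genes, with 0 called by edgeR and 4 at an unadjusted p under 0.05. Over all tested genes, 1557 of 10148 were under that level. DESeq2 called 4 of 35: Cd44, Ereg and Vcam1 higher, and Egf, which was below the edgeR filter, lower. Cd44, the hyaluronan receptor, was at 76.1, 82.9 and 81.8 CPM in CAF 1 to 3 and at 38.8, 43.1 and 32.5 CPM in normal 1 to 3, with no overlap and little spread in either group (log2 fold change 1.08, 95% interval 0.42 to 1.73; adjusted p = 0.11 by edgeR). Ereg, the EGF receptor ligand epiregulin, differed by 4.12 on the log2 scale (adjusted p = 0.135), from 5.85, 75.5 and 25.97 CPM in CAF 1 to 3 and 0.408, 6.33 and 1.25 CPM in normal 1 to 3.

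Matrix substrates of the ADAMTS enzymes and their procollagen partners had a median of 1.53 over 24 tested genes, with 2 higher and 0 lower by edgeR and 14 at an unadjusted p under 0.05. The count at that unadjusted level over all tested genes was 1557 of 10148. DESeq2 called 6 of 25, all higher: Acan, Col1a1, Fbn2, Fn1, Hapln3 and Nid2. The edgeR calls were the basement membrane protein Nid2 (190, 184 and 221 CPM in CAF 1 to 3; 13.1, 12.7 and 30.0 CPM in normal 1 to 3; adjusted p = 0.0201) and the microfibril protein Fbn2 (30.7, 23.2 and 31.9 CPM against 4.08, 5.07 and 5.0 CPM; adjusted p = 0.039 by edgeR). Nid2 did not pass without CAF 2, CAF 3, normal 1 or normal 2 (adjusted p = 0.0763, 0.0638, 0.155 and 0.0995), and Fbn2 passed only in the fit without normal 3 among those with 1 library left out. Of the tested list, 12 genes had all CAF libraries above all normal ones (background 10.6% of all tested genes), and the fibroblast share was higher in 2 of the 3 CAF libraries than in any normal library. With the fibroblast marker counts as library total, neither gene passed: Nid2 was at a log2 fold change of 2.46 (adjusted p = 0.0785) and Fbn2 at 1.48 (adjusted p = 0.253), where the median of all genes was -1.12. The fibroblast marker list shares Col1a1, Col1a2, Col3a1, Dcn, Lum and Fn1 with the matrix list. Neither the fibroblast share nor this scaling is therefore independent of the matrix genes. Fbn2 did not pass with limma-voom (adjusted p = 0.0655) or with mice per library as a covariate (0.0646) either.

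The proteoglycan cut by ADAMTS1, ADAMTS4 and ADAMTS5 is named after its values were seen. Acan, which encodes aggrecan, had 24, 41 and 68 counts in CAF 1 to 3 and 0 counts in every normal library. As CPM the CAF levels were 35.1, 5.66 and 9.2, so CAF 1, the library with the lowest total count, was the highest. With the normal group set to 3 counts, the CAF mean was at least 22.4-fold higher (8.82-fold without normal 1). That mean leans most on CAF 1. The adjusted p was 0.0998 by edgeR, and DESeq2 called the gene. Vcan, which encodes versican, was at 16.1, 34.5 and 39.6 CPM in CAF 1 to 3 and at 3.67, 11.4 and 15.0 CPM in normal 1 to 3, where CAF 1 lay just above the highest normal library (log2 fold change 1.71, adjusted p = 0.231 by edgeR).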

How the data were processed

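Tools named in the submitters' processing notes, with no version, are DESeq2, HTSeq, STAR and cutadapt, on build mm10; annotation, strand use and molecular identifiers are not given in sources used here. The authors deposited raw counts per gene, which were the values tested. The deposited normalized signal is, per the file headers and in every library, the count divided by 1 size factor. Regularized log2 values made by the authors, per the file headers, were not used. The log2 fold change, p-value and adjusted p-value that the authors computed for CAF against normal are deposited in the same table. Every gene listed reached 6 counts in some library.

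Counts were fitted with edgeR 4.0.16 in R 4.3.3 (filterByExpr defaults, trimmed mean of M-values, quasi-likelihood F test on the group, Benjamini-Hochberg adjustment over 10148 genes, threshold 0.05), after a check on simulated counts. Standard errors and 95% intervals are approximate, being derived from F statistics. Each library held the cells of its own 1 or 2 mice, per the labels. Counting intervals and floors (3 counts) cover counting error only. GC content was taken from the last 500 bases of each gene's longest coding transcript in GENCODE M21, over genes with a mean of at least 10 counts; 96.8% of those genes matched. Gene positions and the zinc stretch, searched in each gene's longest coding sequence, are from the same annotation.

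The protease genes and all lists were chosen with earlier results of these data known. The text names all 10 genes, up to 4 called genes of each other list by smallest p (or the 2 with the smallest p if none passed), and the 5 genes most like Adam12 (prior count of 2). Alternatives were DESeq2 1.42.0, limma-voom (limma 3.58.1), 5 other scalings, 2 other filters, the number of mice as a covariate, each library left out, and normal 1 and 2 left out together; the GC side as a block was added after seeing the data.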

Additional observations from a re-analysis of the deposited data

How the results depend on the processing

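No paired analysis was possible because the labels give no replicate number that the CAF and normal libraries share. The cause of the changes below was not tested. The count of genes passing was 112 in the fit reported; it was 935 with DESeq2, 443 with the fibroblast identity list as library total, 65 with limma-voom, 0 to 1193 with 1 library left out and 0 without normal 1 and 2 (1271 genes at an unadjusted p under 0.05). Of these calls 42.8% were higher in CAF with DESeq2 and 12.6% with the fibroblast total, against 91 of 112. With 1 library left out, the highest count came without normal 3 and the lowest without normal 1. With limma-voom, 1967 of 10148 genes were at an unadjusted p under 0.05. The number of protease genes passing, 1 as reported, was 0 with limma-voom (3 at an unadjusted p under 0.05), 0 to 2 with 1 library left out and 0 without normal 1 and 2 (2 at an unadjusted p under 0.05). Genes passing in the 7 other lists numbered 3, and 17 with DESeq2, 1 with the number of mice as covariate, 0 to 22 with 1 library left out and 0 without normal 1 and 2.

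Adam12 was positive in all 18 alternatives (log2 fold change 3.90 to 5.75) and passed in 12. With the fibroblast total, which moved the median of all genes to -1.12, signs turned in Adam9 (-0.056), Adam10 (-0.11), Adam17 (-0.94), Adamts1 (-0.82) and Adamts4 (-0.46), each still above that median. With plain library totals that median was 0.40. With 1 library left out Adam17 ranged from -0.088 to 0.27, turning without CAF 1, normal 1 or normal 2, and it was -0.33 without normal 1 and 2 together. Adam19 turned with plain library totals (0.094), limma-voom (0.58), the number of mice as covariate (0.32), the GC side as a block (0.78), and without CAF 2, CAF 3 or normal 3; with 1 library left out it ranged from -0.63 to 1.63. Adamts2 and Adamts12 kept their sign in every alternative that tested them but not their size: with the fibroblast total they were 0.53 and 0.94, with the GC side as a block Adamts12 was 1.02, and without normal 1 and 2 they were 0.36 and 9.08. Adamts5 and Adamts12 both had 0 counts in CAF 1 and normal 3, which allows up to 4.39 and 3.75 CPM. For Adamts12 these limits lie below the 22.8, 23.1 and 10.1 CPM of CAF 2, CAF 3 and normal 2. What part depth has in these 0 counts was not tested.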
